A study of Solanum tuberosum with 36 samples.

Results

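The comparison covers 6 of the 36 leaf samples of a potato drought study, namely the drought-sensitive cultivar Owacja on day 0 (3 libraries) and on day 6 (3 libraries). The members were taken by their labels, which give the cultivar and the day, and no measured value was used to choose them. Owacja plants of day 0 were watered normally, and those of day 6 had received no water since then, starting 3 weeks after tuber formation began. Both groups are the same unmodified cultivar, grown in pots, and the replicates come from different plants, as tissue of the third to the fifth leaf from the top. Leaves of plants kept watered until day 6 were not analysed here, so water shortage and the 6 days of further growth cannot be told apart. The drought-tolerant cultivar Tajfun, which shares the breeding clone PS646 with Owacja, was sampled on the same days and under the same treatment and is used below only where it shows in what Owacja differs. The libraries of Owacja on day 10 of the same drought are set beside those of day 6 at the end.

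A leaf that loses water raises its content of abscisic acid, the hormone that closes stomata and switches on a set of protective genes. Among these are the late embryogenesis abundant (LEA) proteins, to which the dehydrins such as RAB18 belong. They are hydrophilic proteins thought to shield membranes and other proteins while cells dry. Other parts of the response are small heat-shock proteins that hold unfolded proteins, kinase and phosphoinositide cascades that carry the signal, transporters that move sugars and ions, and a shift from photosynthesis and growth to the use of stored carbon and amino acids. The questions of the comparison are which genes took part in this early stage in Owacja and by how much.

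The values below are normalized reads, that is, the reads of a gene in 1 library divided by a scale factor of that library. The deposited table gives only the mean of each group, and the 3 single libraries were solved from the means of the same group in 3 tables, as described under the processing. All 25289 genes came out as whole numbers of reads within 0.0001 reads. The libraries of a group are called A, B and C in the order of their total, because the solution does not tell which of them carries which replicate number. Totals ranged from 37750901 to 41041276 reads on day 0 and from 39239954 to 40062252 on day 6, and all but about 3% of the values above 0 were even numbers, as when both reads of a pair are counted. These totals exceed the mapped reads that the paper lists for the same groups, and the reason was not tested. The recovered reads can therefore not be a single count of each mapped read. Counting intervals below take each pair as 1 count and may be too narrow if some reads were counted more than once. Reads are not divided by gene length, so where genes are ordered by their reads below, the order is one of reads and not of transcript number.

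For the genes on which the comparison turns, the RT-PCR primers listed by the study show which transcripts were followed. They are given for RAB18 (PGSC0003DMG400003531), whose RNA served to pick the sampling days, for CAP160 (PGSC0003DMG400014293), and for 2 genes whose responses differed between the cultivars, NRT2.7 (PGSC0003DMG400006913) and a cytochrome P450 (PGSC0003DMG400014954). The letters are in lower case throughout, because no part of a primer is singled out.
RAB18, first primer: gtaatctgaggatgatgg
RAB18, second primer: gggagcttctctttgatctt
CAP160, forward primer: ccgaaactcgcgaaactaag
CAP160, reverse primer: tgcaaattcagttgctgagg
NRT2.7, forward primer: gtggtgcttggaagctctgt
NRT2.7, reverse primer: ggaattctgtggctttgtga
Cytochrome P450, forward primer: tcgaaccctaggactcatgg
Cytochrome P450, reverse primer: agtaaatcgcttcccagcaa

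After 6 days without water 36.2% of the tested genes of Owacja leaves had changed. Of 19323 genes with a mean of at least 10 reads over the 6 libraries, 3196 rose (16.5%) and 3793 fell (19.6%), together 6989 genes, in limma at an adjusted p below 0.05. Changes of at least 2-fold were found for 2066 genes that rose and 2967 that fell, of at least 8-fold for 552 and 789, and of at least 32-fold for 197 and 228. The median log2 difference of the genes that rose was 1.26 and that of the genes that fell was -1.67, while the median over all tested genes was 0.03. The groups did not overlap in 6939 of the 6989 called genes, against 51.8% of all tested genes. The smallest called log2 difference was 0.44, for NRT2.7, with a standard error (SE) of 0.15. The median SE was 0.28, and a gene at that SE needed a larger difference to be called with 3 libraries a group. In all, 12334 genes were not called. When libraries were scaled to their total reads instead, the median log2 difference of all genes shifted by 0.38, and 5652 genes rose and 2554 fell, so that the share of higher genes among those called went from 45.7% to 68.9%. Directions below are relative to the first scaling unless stated.

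**Figure D1:**
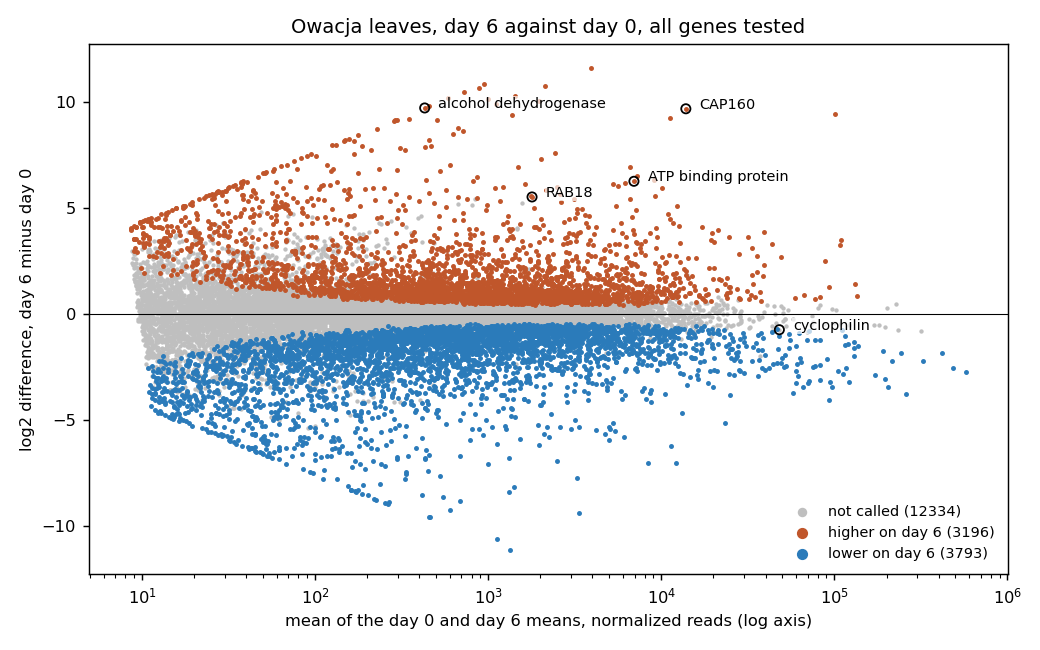
Log2 difference between day 6 and day 0 (y axis) against the mean level in normalized reads (x axis, log scale) for the 19323 genes tested in Owacja, 1 point per gene. The 3196 genes that rose lie above 0, the 3793 that fell lie below, and the straight outer edges hold genes without reads in one of the groups.

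The share of called genes was higher in classes with more reads. Among the 591 genes with a mean of 10000 or more reads 59.1% were called, among the 5444 genes with 1000 to 10000 reads 44.8%, among the 7938 with 100 to 1000 reads 36.5% and among the 5350 with 10 to 100 reads 24.4%. In the class with the most reads 204 fell and 145 rose, with a median log2 difference of -0.24, and in the class of 1000 to 10000 reads 1184 fell and 1253 rose. The SE was largest in the lowest class, with a median of 0.60, against 0.20 to 0.27 in the 3 classes above it.

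The 5 genes of dehydration protection rose, and all 5 had day 6 libraries above every day 0 library (5 of 5 higher, against 16.5% of all tested genes). The median log2 difference of the 5 genes was 5.65, beside 0.03 for all tested genes. The sampling days were set by the RAB18 RNA of these plants, and the other 4 genes were picked by the study on leaf samples of the same experiment, so the direction of the 5 is not independent evidence. Leaving out any 1 of the 6 libraries kept all 5 calls.

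RAB18, a dehydrin that abscisic acid induces, had 62.3, 60.8 and 77.0 normalized reads in the day 0 libraries A, B and C and 6101, 2310 and 2127 in the day 6 libraries. Library A of day 6 stood more than 2-fold above the other libraries of its group, and even the lowest day 6 library lay far above day 0. The means were 66.7 ± 8.96 and 3513 ± 2243 (SD, n = 3), a ratio of 52.7, with a log2 difference of 5.53 ± 0.39 (SE, adjusted p = 4.59e-05 in limma).

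CAP160, a protein first known from cold-acclimated spinach, showed the largest change of this group. It had 42.2, 15.9 and 49.8 normalized reads on day 0 and 29747, 26762 and 26493 on day 6. The day 6 libraries lay close together, at a mean of 27667 ± 1806 (SD, n = 3), and the ratio of the means was 769 (log2 difference 9.69 ± 0.38, adjusted p = 6.33e-06 in limma). Ci21B had 10.1, 15.9 and 6.80 normalized reads on day 0 and 719, 544 and 471 on day 6, a ratio of 53.0.

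The gene annotated as LEA protein (PGSC0003DMG400008497) was hardly read before drought. Libraries A and B of day 0 held no read of it and library C held 6 reads, or 3 pairs, whereas the day 6 libraries had 155, 72.5 and 103 normalized reads. The ratio over the summed pairs was 48.4, with an exact 95% counting interval from 16.3 to 237. The small heat-shock protein (PGSC0003DMG400039484) had 26.1, 44.9 and 31.7 normalized reads on day 0 and 702, 119 and 146 on day 6. As for RAB18, library A of day 6 was the highest by far, and the spread on day 6 (322 ± 329, SD, n = 3) was as large as the mean. Its log2 difference was 2.75 ± 0.65 (adjusted p = 0.0124 in limma), and without library A of day 6 it was 1.95.

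**Figure D2:**
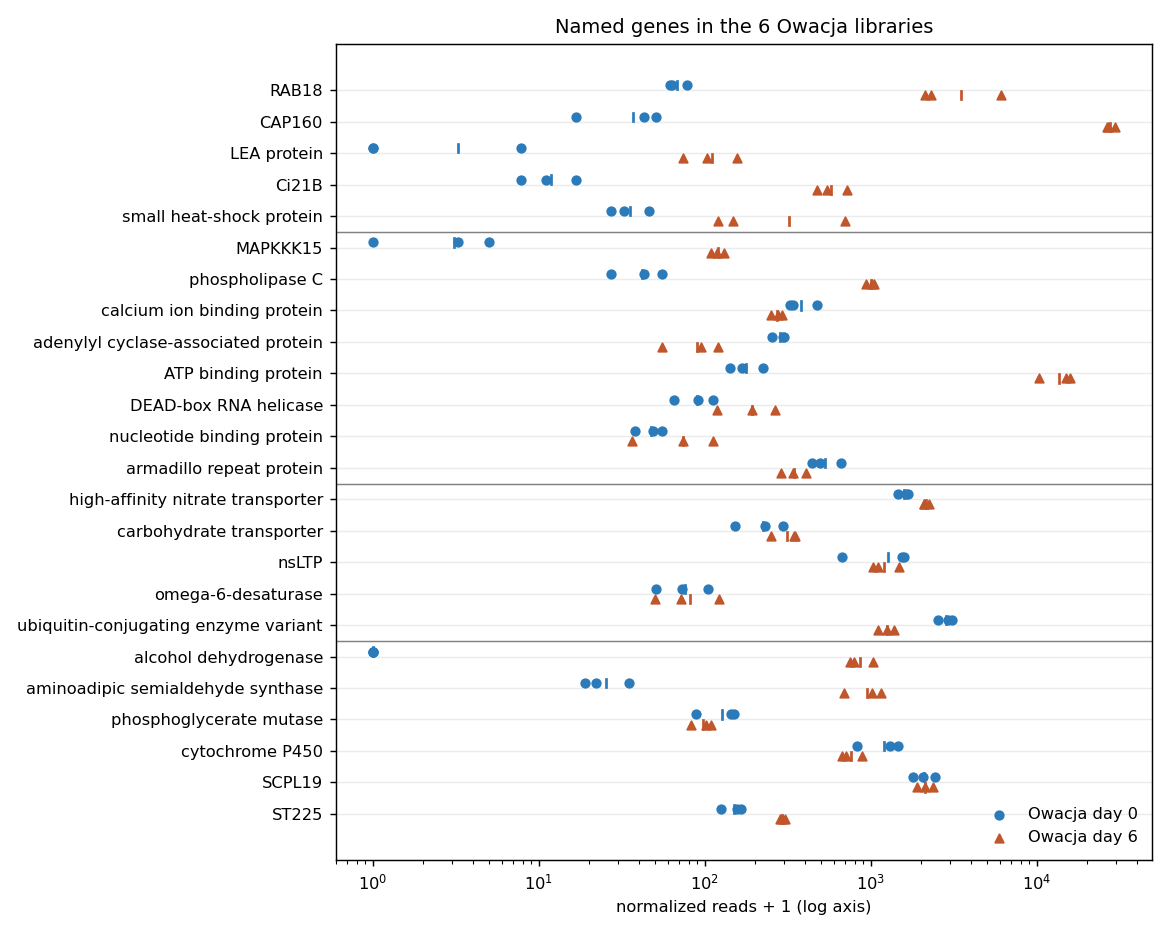
Normalized reads plus 1 (x axis, log scale) of the 24 genes of 4 functional groups (rows, separated by lines) in the 3 day 0 libraries (circles) and the 3 day 6 libraries (triangles) of Owacja, with the mean as a short bar. In the top block every triangle lies to the right of every circle, and RAB18 and the small heat-shock protein have 1 triangle far to the right of the other 2.

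Of the 8 genes of signalling and regulation, 3 rose and 1 fell, and 4 did not pass the test, beside 16.5% of all tested genes that rose and 19.6% that fell. The study picked these genes, and those of transport and metabolism below, on leaf samples of the same experiment. Their counts are therefore a description and no independent evidence. The grouping was made here, and names such as ATP binding protein or nucleotide binding protein do not show a role in signalling. MAPKKK15 (PGSC0003DMG400015019), a kinase at the head of a mitogen-activated protein kinase cascade, had 4, 0 and 2 reads on day 0 and 129, 109 and 118 normalized reads on day 6. The ratio over summed pairs was 52.1, with a 95% counting interval from 17.6 to 255. Phospholipase C (PGSC0003DMG400001621), which cleaves membrane phosphoinositides into second messengers, had 42.2, 26.4 and 54.4 normalized reads on day 0 and 1016, 941 and 1042 on day 6. That is a ratio of 24.4 (log2 difference 4.63 ± 0.30, adjusted p = 3.14e-05 in limma), and its day 6 libraries lay close together.

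The gene annotated as ATP binding protein (PGSC0003DMG400012174) had 167, 140 and 224 normalized reads on day 0 and 10288, 15070 and 15767 on day 6, a ratio of 77.4. The adenylyl cyclase-associated protein (PGSC0003DMG400000723), which binds actin monomers, was the gene of this group that fell. It went from 253, 301 and 297 normalized reads to 54.4, 119 and 93.9, with means 3.18-fold apart (log2 difference -1.73 ± 0.33, adjusted p = 0.00478 in limma). With the day 10 libraries in the same fit its adjusted p was 0.312, and 1 of the day 10 libraries had no read of the gene.

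The other 4 signalling genes had smaller differences. The DEAD-box RNA helicase, of a family that unwinds RNA, had means of 88.4 ± 23.4 and 191 ± 72.6 normalized reads (SD, n = 3), the groups did not overlap, and the adjusted p was 0.0562 in limma. With 1 library left out, the helicase stayed uncalled in 5 of 6 settings, with adjusted p-values up to 0.193 in limma. Without library A of day 6 the adjusted p was 0.024. The armadillo repeat protein (532 ± 114 against 344 ± 59.1 normalized reads) and the calcium ion binding protein (380 ± 82.4 against 271 ± 21.1) had lower values in all 3 libraries of day 6, but adjusted p-values of 0.069 and 0.138 in limma. The nucleotide binding protein overlapped between the days.

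Among the 5 genes of transport and lipids, 1 rose and 1 fell, so that the 40.0% called lay near the 36.2% of all tested genes. The high-affinity nitrate transporter NRT2.7, which in Arabidopsis loads nitrate into vacuoles of the seed, had 1631, 1451 and 1683 normalized reads on day 0 and 2234, 2105 and 2108 on day 6. The difference was small but the libraries did not overlap, at a ratio of 1.35 (log2 difference 0.44 ± 0.15, adjusted p = 0.0494 in limma). This call was lost when any 1 of the 6 libraries was left out, with adjusted p-values from 0.0581 to 0.134. The ubiquitin-conjugating enzyme variant (PGSC0003DMG400022225) fell from 2930, 3066 and 2546 normalized reads to 1383, 1110 and 1252, with means 2.28-fold apart (log2 difference -1.19 ± 0.16, adjusted p = 0.00102 in limma). The paper lists the fatty acid desaturase FAD4 as the Arabidopsis homologue of this gene.

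The remaining 3 genes of this group overlapped between the days. The carbohydrate transporter had means of 224 ± 71.4 and 313 ± 55.0 normalized reads (SD, n = 3). For nsLTP, a small protein that binds lipids in the apoplast, they were 1271 ± 521 and 1209 ± 245. The gene annotated as omega-6-desaturase had 75.6 ± 27.1 and 80.5 ± 36.7. The paper lists the fatty acid desaturase FAD7 as its Arabidopsis homologue, so no function is taken from the name. For nsLTP a single library made most of the spread of day 0, as library A had 670 normalized reads and libraries B and C had 1551 and 1593.

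Of the 6 genes of metabolism, 3 rose (beside 16.5% of all tested genes), none fell (beside 19.6%) and 3 did not pass the test in limma. These 6 genes too were picked by the study on the same experiment, so the shares only describe them. An unadjusted p below 0.05 was found for 4 of the 6, beside 9106 of all 19323 tested genes. With voom weights 3 were called, beside 6946 of the 19323. Alcohol dehydrogenase (PGSC0003DMG400024849), which turns acetaldehyde into ethanol when pyruvate is fermented, had no read in any day 0 library and 1024, 755 and 795 normalized reads on day 6. Against a floor of 6 reads, or 3 pairs, over the group of day 0 it was at least 377-fold higher. Aminoadipic semialdehyde synthase (PGSC0003DMG401015935), the bifunctional enzyme that opens the breakdown of lysine, had 34.2, 21.1 and 18.1 normalized reads on day 0 and 691, 1150 and 1014 on day 6, a ratio of 38.9 (log2 difference 5.24 ± 0.33, adjusted p = 2.96e-05 in limma).

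ST225 rose 1.97-fold, from 155, 124 and 165 to 304, 283 and 290 normalized reads (log2 difference 0.99 ± 0.22, adjusted p = 0.0105 in limma). The cytochrome P450, a monooxygenase, had 1464, 825 and 1303 normalized reads on day 0 and 880, 675 and 711 on day 6. The groups overlapped only in that library B of day 0 (825) lay below library A of day 6 (880), and the adjusted p was 0.0785 in limma. With 1 library left out, the gene stayed uncalled in 5 of 6 settings, with adjusted p-values up to 0.208. Without library B of day 0 the adjusted p was 0.0143. Phosphoglycerate mutase, a glycolytic enzyme, had means of 127 ± 34.2 and 96.5 ± 13.5 normalized reads, and SCPL19, known in Arabidopsis as an acyltransferase of sinapate esters, 2098 ± 314 and 2135 ± 239 (SD, n = 3), and both overlapped.

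A set of 9 genes, made up of cyclophilin and the genes called stable, did not pass the test. In limma 0 of the 9 were called, beside 36.2% of all tested genes, and voom weights called 0, beside 6946 of 19323. An unadjusted p below 0.05 was found for 1 of the 9, beside 9106 of the 19323. The 8 genes that the study named stable had log2 differences from -0.17 to 0.10. The groups overlapped in all 8, whereas they did not overlap in 51.8% of all tested genes. They were chosen by the study for this behaviour on these samples, so their lack of calls is no independent evidence. The paper proposes them only as possible expression controls. With scaling to total reads their differences were all above 0, since all genes shift by 0.38. Cyclophilin (PGSC0003DMG400001630), a prolyl isomerase used as the RT-PCR control, had 45838, 80056 and 55352 normalized reads on day 0 and 43754, 36024 and 27366 on day 6. All 3 day 6 libraries were lower, the log2 difference was -0.75 ± 0.28, and the adjusted p was 0.0686 in limma. With 1 library left out, cyclophilin stayed uncalled in 5 of 6 settings, with adjusted p-values up to 0.232 in limma. Without library A of day 0 the adjusted p was 0.0415.

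The files pair gene identifiers with no names, and beyond the names given in the paper the strongest changes can be given by identifier only. The leaf label was therefore not checked against marker genes. PGSC0003DMG400020605 had the largest positive difference among genes with a mean of at least 100 reads. It had 14 reads, or 7 pairs, in library A of day 0, none in libraries B and C, and 6568, 8679 and 8207 normalized reads on day 6, a ratio over summed pairs of 1470 (95% counting interval 713 to 3656). PGSC0003DMG400030008, the next, had no read on day 0 and 2268, 1369 and 2061 normalized reads on day 6, at least 834-fold higher.

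In the other direction PGSC0003DMG400019517 had 1009, 4253 and 2752 normalized reads on day 0 and none in any day 6 library, at least 1552-fold lower. PGSC0003DMG401005942 had 2041, 2543 and 2159 normalized reads on day 0 and 2 reads, in library B, on day 6. The ratio of day 0 to day 6 over summed pairs was 3877, with a 95% counting interval from 695 to 153181. Of the 19323 genes tested, 26 had no read on day 0 and at least 100 normalized reads in each day 6 library, and 21 showed the reverse.

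Before drought the reads of the leaf libraries were concentrated in few genes, and on day 6 they were spread more evenly. The 10 genes with the most reads held 11.2% to 13.4% of the reads of the day 0 libraries and 5.85% to 6.15% of those of day 6. The 100 with the most reads held 34.2% to 38.8% and 22.8% to 23.6%, and the groups did not overlap in either measure (an exact permutation test of 3 against 3 libraries cannot go below p = 0.1). Library B of day 0 was the most concentrated, with the fewest genes that had any read (20531, against 21091 to 21599 in the other 5 libraries) and the lowest scale factor.

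Most of the genes with the most reads on day 0 fell by day 6. Of the top 100 of day 0, 69 fell and 4 rose, beside 19.6% and 16.5% of all tested genes, with a median log2 difference of -1.67, and their share of normalized reads went from 35.7% to 17.1%. Of the top 100 of day 6, 38 rose and 26 fell, and 55 genes were in both lists. These lists were drawn from the same libraries, so the counts are a description. The gene with the most reads on day 0 had 954400, 1083339.6 and 958864 normalized reads on day 0 and 155390, 134702 and 159440 on day 6, with means 6.67-fold apart. The second in reads went from 694613, 1033176 and 764698 to 158904, 131521 and 130735 normalized reads, 5.92-fold apart. Both fell, with adjusted p-values of 0.000219 and 0.000428 in limma.

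The 2 genes with the most reads on day 6 already had many reads before drought. The first had 265128, 158085 and 152413 normalized reads on day 0 and 186692, 305967 and 293049 on day 6, and the groups overlapped. The second had 280309, 624945 and 331475 on day 0 and 210899, 239301 and 213324 on day 6. Its mean was 1.86-fold higher on day 0 (adjusted p = 0.108 in limma). Leaf tissue holds several cell types, and fewer cells of a type cannot be told apart from less RNA of a gene per cell.

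**Figure D3:**
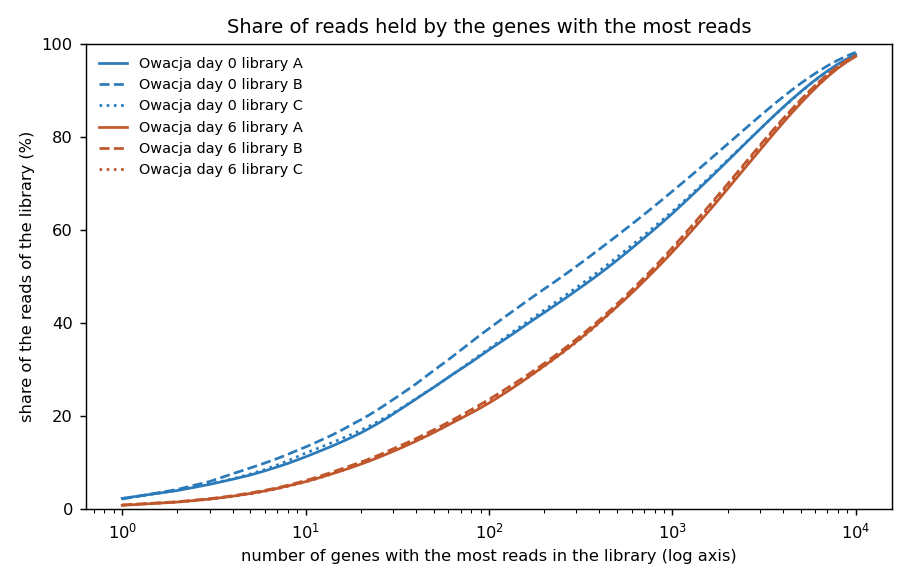
Share of the reads of each library (y axis, percent) held by the genes with the most reads (x axis, number of genes on a log scale), with day 0 libraries in blue and day 6 libraries in orange. At 100 genes the day 0 lines stand at 34.2% to 38.8% and the day 6 lines at 22.8% to 23.6%, and library B of day 0 runs above all others.

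Tajfun, the tolerant relative, was compared in the same way with its own 6 libraries, none of which is shared with Owacja. In Tajfun 3354 genes rose (17.3%) and 3889 fell (20.0%) between day 0 and day 6, 7243 of 19415 genes tested (37.3%). Of the genes that rose in Owacja, 2131 also rose in Tajfun, which is 66.7% of the Owacja list and 63.5% of the Tajfun list. Of the genes that fell, 2749 fell in both, or 72.5% and 70.7%. Opposite calls were few, with 11 genes that rose in Owacja and fell in Tajfun and 10 that did the reverse. Across the 18563 genes tested in both, the log2 differences had a Pearson correlation of 0.82 and a Spearman correlation of 0.78, given as a description, since genes of the same libraries are not independent.

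The difference between the responses was tested directly, by the interaction of cultivar and day over 12 libraries. It passed for 96 of 19585 genes (0.490%), with Owacja more positive in 54 (0.276%) and more negative in 42 (0.214%), and 2270 genes had an unadjusted p below 0.05. The smallest difference called was 0.97 and the median size was 3.03 on the log2 scale, at a median SE of 0.41. Of the 96 genes, 32 moved in the same direction in both cultivars with unequal size, 14 were called in opposite directions, 27 were called only in Owacja and 23 only in Tajfun. In 35 of the 96 at least 1 of the 4 groups had no read at all. For 6 of the 96 no Owacja library held a read, and for another 6 no Tajfun library did. Their response differences restate a change in 1 cultivar. Only 81 of the 96 were tested in both cultivars, so a call in only 1 cultivar can reflect too few reads in the other. The count depended on single libraries. It was 171 without library A of day 0 of Owacja, 62 without library C of day 0, 51 without library B of day 6 and 51 without library C of day 6. For Tajfun it was 62 without library A of day 0 and 59 without library A of day 6.

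**Figure D4:**
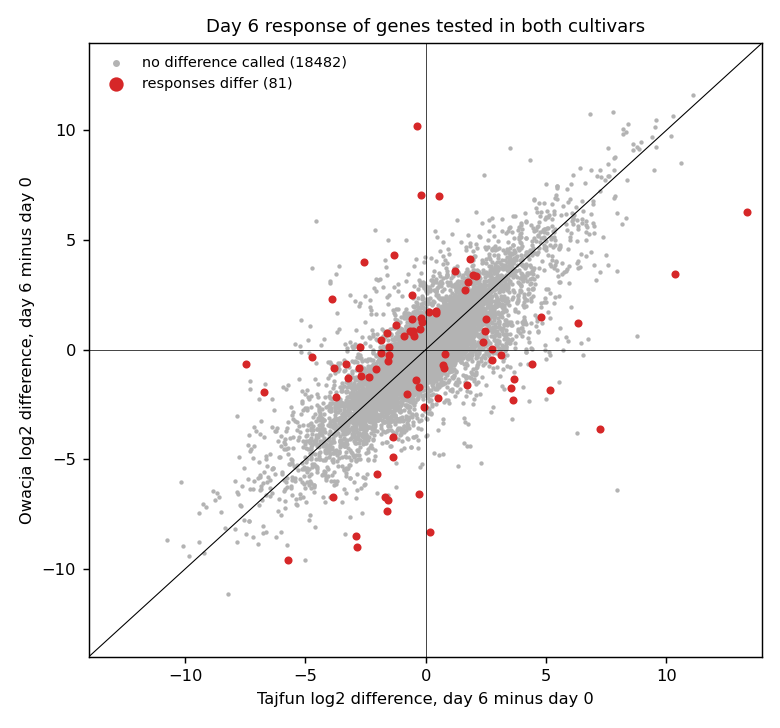
Log2 difference between day 6 and day 0 in Owacja (y axis) against Tajfun (x axis) for the 18563 genes tested in both, 1 point per gene, with the line of equal response. Most points follow the line, and the 81 genes shown in red, those of the 96 that were tested in both cultivars, lie away from it.

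Among the 24 genes of the 4 functional groups, the responses differed for 4, against 0.490% of all genes tested. Of these, NRT2.7, the cytochrome P450 and the ubiquitin-conjugating enzyme variant were selected by the study on these libraries for a difference between Tajfun and Owacja under drought, so their tests repeat that selection and are no independent evidence. NRT2.7 was called in opposite directions in the cultivars. In Tajfun it had 939, 964 and 1526 normalized reads on day 0 and 320, 245 and 360 on day 6, a fall of all libraries, while all Owacja libraries of day 6 were above those of day 0. The response of Owacja minus that of Tajfun was 2.31 ± 0.28 on the log2 scale (adjusted p = 0.00334 in limma), and the call held without any 1 of the 12 libraries (highest adjusted p = 0.0124).

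The cytochrome P450 fell in Tajfun from 1463, 1887 and 1559 to 159, 132 and 199 normalized reads, a log2 difference of -3.33 ± 0.21, beside -0.63 ± 0.25 in Owacja. The responses differed by 2.70 ± 0.33 (adjusted p = 0.00334 in limma). The ubiquitin-conjugating enzyme variant fell in both cultivars, by a log2 difference of -2.68 ± 0.20 in Tajfun and -1.19 ± 0.16 in Owacja. The difference of 1.49 ± 0.25 passed with an adjusted p of 0.0273 in limma, which rose to as much as 0.0769 when 1 library was left out.

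The gene annotated as ATP binding protein rose in both cultivars from unequal levels. Tajfun had no read in any day 0 library and 8471, 12635 and 10453 normalized reads on day 6, at least 4798-fold higher, whereas Owacja already had 140 to 224 normalized reads on day 0. The response difference was -7.03 ± 0.33 (adjusted p = 5.08e-07 in limma), a size that depends on the pseudocount because of the zeros in Tajfun and was -4.09 with a pseudocount of 8. PGSC0003DMG401005942, named above for its fall in Owacja, had 4 reads in 1 Tajfun library of day 0 and 6 reads in 1 of day 6, too few to be tested in that cultivar.

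The genes of dehydration protection did not pass this test, although all but RAB18 were picked by the study for a difference between these cultivars under drought. RAB18 had log2 differences of 5.53 ± 0.39 in Owacja and 5.05 ± 0.26 in Tajfun, and CAP160 9.69 ± 0.38 and 9.43 ± 0.38. Ci21B had 5.65 ± 0.38 and 6.99 ± 0.25, LEA protein 5.74 ± 0.90 and 8.16 ± 0.62, and the small heat-shock protein 2.75 ± 0.65 and 4.25 ± 0.19. In limma 0 of these 5 response differences were called, and 1, that of Ci21B (-1.33 ± 0.46), had an unadjusted p below 0.05. A call that misses the threshold does not show that the cultivars responded alike, as the SE of the last 3 was 0.46 to 1.13. The day 6 means, each in the scaling of its own cultivar, were higher in Tajfun for all 5. In Tajfun and Owacja they were 4357 and 3513 for RAB18, 44090 and 27667 for CAP160, and 3412 and 578 for Ci21B. For LEA protein they were 432 and 110, and for the small heat-shock protein 1183 and 322. The paper reports much less RAB18 RNA in RT-PCR and a much weaker CAP160 induction in the sensitive cultivars.

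**Figure D5:**
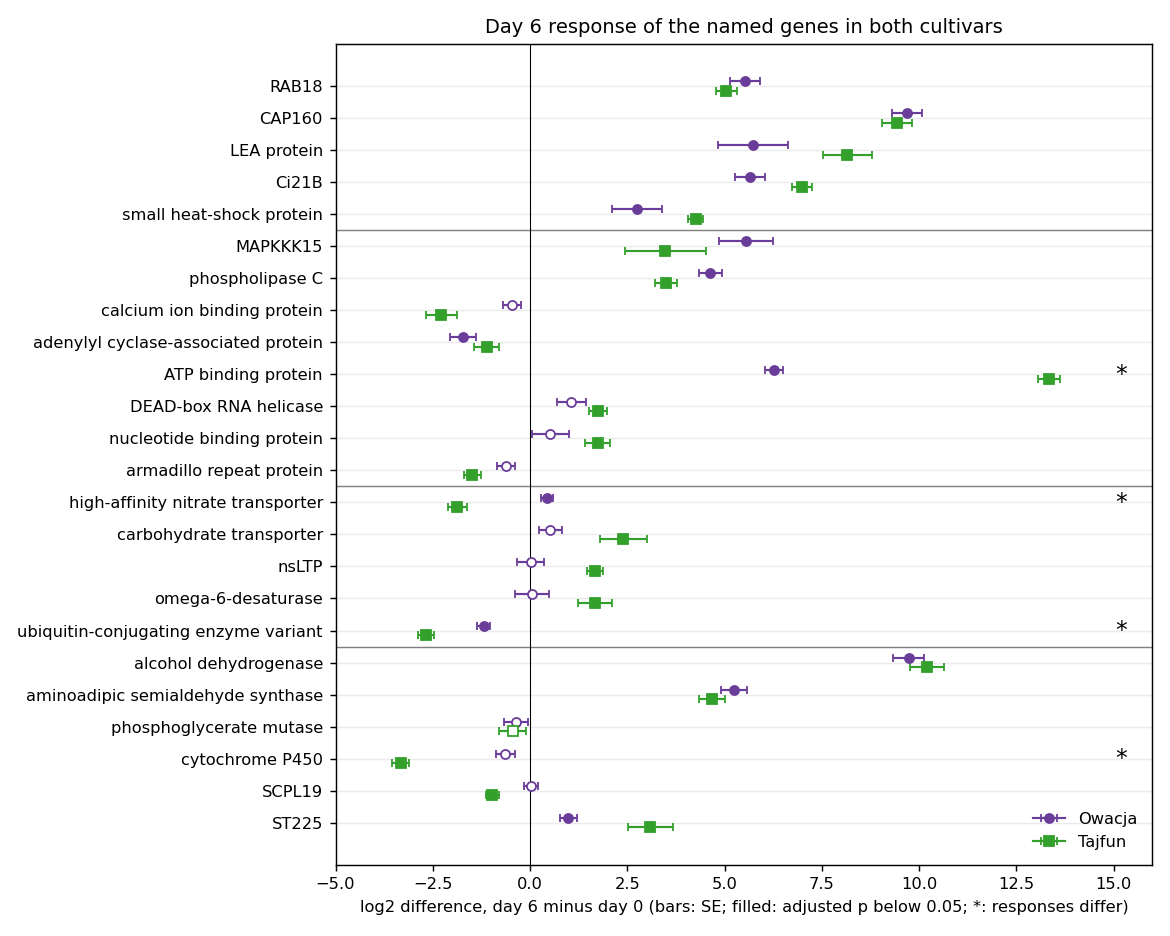
Log2 difference between day 6 and day 0 (x axis) of the 24 genes (rows) in Owacja (circles) and Tajfun (squares), with bars of 1 SE. Filled symbols have an adjusted p below 0.05, and stars mark the 4 genes whose responses differed: ATP binding protein, NRT2.7, the ubiquitin-conjugating enzyme variant and cytochrome P450.

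The primer list of the study holds 56 genes with primers of its Tajfun and Owacja series, made to follow genes that it chose on these samples for a difference between these cultivars. The number counts genes with such primers and not the genes selected. Of the 54 tested in Owacja on day 6, 11 rose, 7 fell and 36 were not called, or 33.3% called against 36.2% of all tested genes, with a median log2 difference of -0.01. In Tajfun, 24 of the 56 rose and 25 fell, beside 17.3% and 20.0% of all genes tested there. The responses differed for 5, beside 0.490% of all genes tested. Owacja was the more positive one in all 5, beside 0.276% of all genes tested. Because of how they were chosen, these counts describe the list and do not test it.

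Between day 6 and day 10 of drought 3331 genes rose (17.4%) and 3148 fell (16.4%) in Owacja, 6479 of 19187 tested (33.8%). This comparison shares the day 6 libraries, so its values are set beside those above. The table of days 6 and 10 has its own scaling. Of the 24 genes, 5 rose and 6 fell after day 6. CAP160 fell from 31584, 28527 and 28251 normalized reads on day 6 to 4628, 4872 and 5356 on day 10. RAB18 had 6477, 2463 and 2268 normalized reads on day 6 and 1413, 1599 and 1853 on day 10, all lower, with an adjusted p of 0.0644 in limma.

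The small heat-shock protein rose further, from 745, 127 and 156 to 1710, 1497 and 1644 normalized reads. Aminoadipic semialdehyde synthase rose from 734, 1226 and 1081 to 4162, 4577 and 3197. Alcohol dehydrogenase fell from 1088, 804 and 847 to 341, 382 and 564, and phospholipase C from 1079, 1003 and 1111 to 394, 456 and 363. The armadillo repeat protein, lower on day 6 than on day 0 without passing the test, rose from 431, 307 and 360 to 1068, 1123 and 2015.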

How the data were processed

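Leaf RNA was sequenced in strand-specific paired-end libraries, and the authors mapped the reads to the PGSC potato genome with TopHat2, estimated reads per transcript with Flux Capacitor and summed isoforms per gene. The authors deposited 1 table per pair of groups, made with DESeq, whose signal values are normalized reads averaged over the libraries of a group. Their columns of fold change, p-value and adjusted p-value hold the authors' own comparison and were not used. No column holds a single sample, and 0 per-sample columns were left out.

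The mean of a group stands in 3 tables with different scale factors. The worth of 1 pair of reads of each library was read from the most frequent lowest means, and 3 equations per gene gave the reads of 3 libraries. In all 5 groups solved, 25289 of 25289 genes were whole within 0.0001 reads, and medians of ratios computed from these reads returned the scale factors in the means. Recovered libraries carry no replicate number.

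Log2(normalized reads + 1) of genes with a mean of 10 or more reads was tested with limma 3.58.1 (R 4.3.3, trend) and Benjamini-Hochberg adjustment over all genes tested, at 0.05. A log2 difference on this scale understates the change of low genes. The interaction fit used median-of-ratios factors over 12 libraries. The code was tested on simulated data. Intervals and floors cover counting error only, with each pair taken as 1 count. The p-values rest on the spread between plants of this 1 study, with variances shared in part across genes. The members and lists were chosen with earlier results of these data known. Genes were named if the paper names them, which gave 24 genes of 4 groups, cyclophilin and the 8 genes called stable. The 4 groups were formed here and not by the paper, and names such as ATP binding protein or ST225 do not give a function. Others were named for the 2 largest positive or negative differences among called genes with a mean of 100 reads and separate groups. The 2 genes with the most reads on a day were also taken, without identifier. Of the identifiers, 0 matched the reference table, and no coordinates are given.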

Additional observations from a re-analysis of the deposited data

Results flagged for a closer look

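For 5 of the genes named above, the test of cultivar by day found unequal responses in Owacja and Tajfun. The response of Owacja minus that of Tajfun was -7.03 for the ATP binding protein, 2.31 for NRT2.7, 1.49 for the ubiquitin-conjugating enzyme variant, 2.70 for the cytochrome P450 and -10.78 for PGSC0003DMG401005942, on the log2 scale, with adjusted p-values in limma from 5.08e-07 to 0.0273. NRT2.7 was higher on day 6 in 3 of 3 Owacja libraries and lower in 3 of 3 Tajfun libraries. NRT2.7, the ubiquitin-conjugating enzyme variant and the cytochrome P450 were chosen by the study for such a difference on these libraries. PGSC0003DMG401005942 had a summed 10 reads in the 6 Tajfun libraries and passed the read minimum through Owacja on day 0 alone, so that its value restates the fall in Owacja.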

How the results depend on the processing

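The number of genes called in Owacja on day 6 was 6989. It was 3956 at an adjusted p below 0.01, and with any 1 of the 6 libraries left out it ranged from 4742 to 7359 (6017 without library B of day 0). Of the genes called with total-read scaling, 5750 were also called in the first scaling. With a 2-fold minimum, 3910 genes were called between day 6 and day 10, against 6479. The number of genes whose response differed between the cultivars was 96, and it was 60 among genes with a mean of 100 or more reads and 51 to 171 with 1 of 12 libraries left out. Leave-one-out counts were 5568 to 6728 for Tajfun and 4536 to 6731 for day 10 against day 6.

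The named genes that changed direction were all uncalled. With total-read scaling the log2 difference was 0.0193 for phosphoglycerate mutase, 0.28 for the gene of unknown function, 0.24 for the Fibronectin type III protein, 0.25 for protein BRE, 0.34 for hyoscyamine 6-dioxygenase, 0.32 for the BTB-POZ and MATH protein, 0.29 for EMB2756 and 0.21 for transcription factor IIB. With all 3 Owacja groups in the fit it was -0.0214 for nsLTP and -0.00449 for SCPL19, and the ratio of group means gave -0.072 for nsLTP. With 1 library left out it ranged from -0.40 to 0.23 for nsLTP, -0.28 to 0.35 for the omega-6-desaturase, -0.0759 to 0.14 for SCPL19, -0.29 to 0.12 for protein BRE, -0.0935 to 0.0215 for hyoscyamine 6-dioxygenase, -0.15 to 0.0854 for the BTB-POZ and MATH protein and -0.0176 to 0.22 for Golgi SNARE 11. The response difference ranged from -0.22 to 0.58 for CAP160. The cause was not tested. NRT2.7 lost its call in Owacja in 6 other settings, with adjusted p-values from 0.051 to 0.169, and kept it with total-read scaling and with a pseudocount of 0.5.

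No paired analysis was possible because the recovered libraries carry no replicate number. With total-read scaling the DEAD-box RNA helicase and the carbohydrate transporter were also called (adjusted p = 0.0163 and 0.0309 in limma). Below 100 reads the median SE was 0.60, against 0.20 to 0.27 above.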

Other observations

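Library A of day 6 had the highest normalized reads of RAB18 (6101), the small heat-shock protein (702), CAP160 (29747), Ci21B (719), LEA protein (155) and alcohol dehydrogenase (1024) among the 3 libraries of its day, and the lowest of the ATP binding protein (10288) and of aminoadipic semialdehyde synthase (691). It also correlated less with libraries B and C of day 6 (Pearson r of 0.941 and 0.942 across tested genes) than these did with each other (0.966). On day 0 the 3 correlations ranged from 0.925 to 0.941, and between the days from 0.791 to 0.844. Cyclophilin was highest in the day 0 library with the most concentrated reads in both cultivars, with 80056 normalized reads in library B of Owacja and 104937 in library B of Tajfun, where the 100 genes with the most reads held 38.8% and 38.3% of the reads.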
